A study of Mus musculus with 2 samples.

Results

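The genes described are those of programmed cell death by apoptosis: the Bcl2 family, the caspases, the inhibitor of apoptosis proteins (IAPs) and the factors that join them. They were taken by gene symbol, as names that begin with Bcl2, or with Casp or Birc and a digit, together with 18 named genes such as Bax, Mcl1, Apaf1, Fadd and Diablo. This gave 88 of the 25697 array probes, for 45 of 17874 genes. Bik and Endog, also named in the rule, are not analysed here. The data come from an Illumina bead array of total RNA from wounded back skin of C57BL6 mice, 3 months old and on a low calcium diet. The BKO array held RNA of b-catenin knockout mice (b-catenin fl/fl with Cre driven by keratin 14), and the CON array that of their littermates (b-catenin fl/fl without Cre). Both groups thus carried the floxed alleles, and Cre is driven by a promoter active in keratinocytes, so other skin cells kept the gene. Each mouse received 2 full-thickness wounds of 6 mm, which were cut out with an 8-mm punch 3 days later, and per the series description each sample was RNA of wounds from 3 mice. That description also gives n = 3, which was read as the mice of a pool since there is a single array for each genotype. With 1 array per group there was no replicate and no test was made, so each difference is one between 2 arrays.

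Apoptosis runs by an intrinsic route through mitochondria and an extrinsic route from death receptors at the cell surface. In the intrinsic route BH3-only proteins set free Bax and Bak1, which open the outer mitochondrial membrane unless Bcl2 and its pro-survival relatives hold them. Released cytochrome c builds the apoptosome on Apaf1 and activates caspase-9, while death receptors activate caspase-8 through Fadd, and both routes end in the executioner caspases. In epidermis, cornification is a separate form of cell death that uses caspase-14, and in healing wounds apoptosis removes inflammatory cells and, later, cells of the granulation tissue.

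Across the apoptosis genes the 2 arrays were close. A probe counted as detected where its raw intensity reached the level that fewer than 1% of the negative control beads reached, 177.9 in BKO and 181.8 in CON. Of the 88 probes, 55 were detected on at least 1 array, for 34 genes, and 47 of them on both. The log2 difference between BKO and CON, after background correction and quantile normalization with neqc, had a median of -0.03 over the 55 probes, beside 0.01 over all 12965 detected probes. Of the 55 probes, 6 (10.9%) differed by at least 1.5-fold, beside 8.61% of all detected probes. These are fitted folds: 3 of the 6 probes were detected on 1 array only, and for 2 of those the bound given with the gene is under 1.5-fold. A bound, written as at least some fold for a probe detected on 1 array, holds on the neqc scale alone. It allows for no noise, and the fold in the authors' intensities can be smaller. The 2 higher in BKO (background 3.94%) belonged to Bcl2l2 and Bcl2l12, and the 4 lower (background 4.67%) to Bcl2, with 3 probes, and Bcl2l1. A single probe, of Bcl2l2, had a fitted fold past 2, as 1.25% of all detected probes did, but it was detected in BKO alone and its bound is 1.501-fold.

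All 6 were dim. Their mean raw intensity on the 2 arrays was under 300, a limit chosen after the values were seen, where 24 of the detected apoptosis probes lay and where 17.1% of all detected probes differed by 1.5-fold. None of the 31 apoptosis probes at 300 or more differed by that much, beside 4.17% of all detected probes there, and these 31 ran from -0.45 to 0.45 on the log2 scale. In the intensities as the authors normalized them, with background left in, none of the 55 probes passed 1.5-fold, beside 1.23% of all detected probes, and the range was -0.41 to 0.45. Just past the 1.5-fold limit were Bcl2l1 at -0.62 and Bcl2l12 at 0.68, and just short of it Bcl2a1d at -0.56 and Bid at 0.52 (fitted log2 differences). Of these 4 probes only that of Bcl2l12 was detected on both arrays, and the bounds of the others are 1.46-fold for Bcl2l1, 1.19-fold for Bcl2a1d and 1.03-fold for Bid. By the brightest probe of each of the 34 genes, 1 gene (Bcl2l12) was 1.5-fold higher and 1 (Bcl2) 1.5-fold lower, beside 3.54% and 4.48% of all detected genes.

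**Figure D1:**
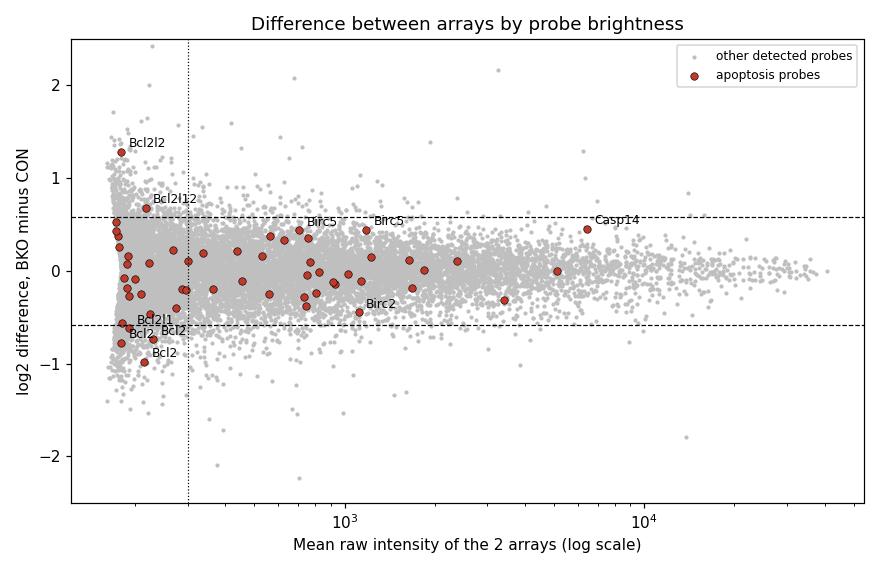
Log2 difference between BKO and CON (vertical) against the mean raw intensity of the 2 arrays (horizontal, log scale) for 55 apoptosis probes (red) and the other detected probes (grey). The dashed lines mark 1.5-fold and the dotted line a raw intensity of 300, and 4 probes lie outside the drawn range; all apoptosis probes past 1.5-fold lie left of the dotted line.

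The arrays differed in some tissue markers, and the part of this in the values below was not tested. Keratin 14 read 35204 in BKO and 33908 in CON and keratin 5 read 12180 in BKO and 11027 in CON (normalized intensities), so both pools held epidermis. The 6 slow muscle markers were all at least 1.5-fold higher in BKO by their fitted folds, though Myh7 and Tnni1 were detected in BKO alone and the bound for Myh7 is 1.11-fold (summed normalized intensity 15642 in BKO and 1962 in CON), and 3 of 4 red blood cell markers were lower (6362 in BKO and 21878 in CON). Fast muscle markers differed less, with 7 of 10 above 0 (median log2 difference 0.27, summed intensity 74718 in BKO and 69022 in CON). Ctnnb1, the targeted gene, had 2 probes at -0.17 and 0.01, whose place relative to the deleted part is not known here, so they check nothing about the labels. In whole skin, fewer cells of a type and less RNA per cell cannot be told apart. Intensities are arbitrary and each probe has its own brightness, so levels are compared between arrays and not between genes.

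The pro-survival Bcl2 proteins bind and block the pore formers. Of their 13 detected probes 1 was at least 1.5-fold higher in BKO and 4 were lower, by fitted folds. Of all detected probes 3.94% were higher and 4.67% lower by that much. All of the pro-survival probes past 1.5-fold were dim, with a mean raw intensity under 300. In that range 17.1% of all detected probes differed by 1.5-fold, but the 13 also include brighter probes, so this share is not a like one. None passed 1.5-fold in the authors' intensities. Bcl2 itself, the founding member, had 8 probes, of which 4 were detected, all lower in BKO. Probe ILMN_2706514 read 54.6 in BKO and 108 in CON (1.97-fold lower), and ILMN_1249366 read 72.6 in BKO and 121 in CON (1.67-fold lower). ILMN_1249021 was detected in CON alone, with a bound of 1.22-fold lower in BKO and a fitted log2 difference of -0.78. These 3 were designed on one Bcl2 transcript model, which has 5 probes. The remaining one, ILMN_2682162, was designed on the other model and read 71.3 in BKO and 84.5 in CON (-0.25 on the log2 scale). The direction was the same on all 4 in the authors' intensities, at 1.26-fold, 1.22-fold, 1.13-fold and 1.06-fold lower in BKO. Their raw intensities ran from 164.1 to 198.8 in BKO and from 194.9 to 261.1 in CON, near the limits of detection. The 4 other Bcl2 probes read between 128.8 and 157.5 in BKO and between 133.4 and 158.1 in CON before normalization, below both limits.

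Bcl2 is known for its part in the survival of melanocytes in hair follicles and of lymphocytes. Of 6 melanocyte markers, a list added after the values were seen, the 3 detected ones (Dct, Mlana and Pmel) were all lower in BKO. Dct read 140 in BKO and 267 in CON. Mlana and Pmel were detected in CON alone, with bounds of 1.76-fold and 1.28-fold lower in BKO (1.27-fold and 1.18-fold in the authors' intensities). The summed normalized intensity, 207 in BKO and 416 in CON, thus includes BKO values below the detection limit. Tyr, Tyrp1 and Slc45a2 were detected on neither array. Of 7 detected T and NK cell markers 4 were lower (median log2 difference -0.29, summed intensity 1372 in BKO and 1619 in CON), while Cd4 and Cd8a were not detected. The part of the melanocyte, T and NK cell markers in the Bcl2 values was not tested.

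The promoter window of Bcl2 (RefSeq, GRCm38.p6, chr1:106714241-106714540, minus strand, 250 bases before to 50 after the start) is shown because Bcl2 is the member with the most probes on one side of 0. Capitals mark matches to any of 5 motifs, searched on both strands, which in the windows shown do not overlap each other.
Bcl2: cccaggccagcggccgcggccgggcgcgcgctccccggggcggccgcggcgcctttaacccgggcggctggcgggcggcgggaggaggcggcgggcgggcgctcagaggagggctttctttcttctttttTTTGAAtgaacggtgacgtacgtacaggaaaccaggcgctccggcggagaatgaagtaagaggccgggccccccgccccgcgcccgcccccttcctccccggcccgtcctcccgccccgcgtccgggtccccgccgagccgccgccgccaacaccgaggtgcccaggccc
The motifs were CTTTGAT (TCF/LEF, the DNA partners of beta-catenin), TTTGAA (CHR, of cell cycle genes), GAAANNGAA (IRF), TTCNNNGAA (GAS, bound by STAT factors) and GGNNTTTCC (NF-kB). The Bcl2 window holds 1 CHR match, 120 bases before the start. Windows were found for 40 of the 45 genes, 53 in all. CHR letters were in 17.0% of these 53 and 17.9% of all 32851 windows, and NF-kB letters in 11.3% (6 windows, 2 of them overlapping windows of Casp4) and 5.82%. IRF letters were in 7.55% and 8.56%. TCF/LEF letters were in 1 of the 53 (3.73% of all windows), in Birc2, and GAS letters in 1 (8.3% of all), in Casp12. The motif letters and the windows shown were chosen after values and matches had been seen, and a longer form of the NF-kB letters was in a smaller share of all windows, so the shares depend on the letters and nothing is drawn from them. A match describes the letters and is no sign that a factor binds there.

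The relatives of Bcl2 showed no common direction, and their probes disagreed. Mcl1, a short-lived pro-survival protein, read 4985 in BKO and 4993 in CON. Bcl2l2, which encodes Bcl-w, read 1437 in BKO and 1632 in CON on its brightest probe and 525 in BKO and 684 in CON on the next (log2 differences -0.18 and -0.38). Its dimmest probe, ILMN_2601572, went the other way and was detected in BKO alone, at 72.8 in BKO and with a fitted log2 difference of 1.28, a bound of 1.501-fold above CON and 1.25-fold in the authors' intensities. Bcl2l1, which encodes Bcl-xL, read 177 in BKO and 165 in CON on its brightest probe (0.11). Its other probes were each detected on 1 array. One read 46.8 in BKO and 71.8 in CON, with a bound of 1.46-fold lower in BKO but 1.12-fold in the authors' intensities. The other read 49.6 in BKO and 36.8 in CON, with a bound of 1.02-fold higher. Bcl2a1 proteins are made by leukocytes, neutrophils among them, and mouse has several near-identical Bcl2a1 copies, so these values are uncertain as to copy. Bcl2a1c read 58.9 in BKO and 56.1 in CON. Bcl2a1d was detected in CON alone, with a bound of 1.19-fold lower in BKO (1.10-fold in the authors' intensities). Neutrophil markers were higher in BKO in 10 of 11 detected genes (median log2 difference 0.35, summed intensity 65319 in BKO and 52435 in CON). S100a8 (28697 in BKO and 26091 in CON) and S100a9 (14997 in BKO and 11686 in CON) made up most of that sum, so it is no count of cells. The genes differed in size, with Csf3r at 0.16, Clec4d at 0.02 and Trem3 at -0.10, but Cxcr2 at 0.95 and Retnlg at 0.54. The part of the neutrophil markers in the Bcl2a1 values was not tested. Bcl2l10 was not detected by either of its 2 probes.

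The pore formers leaned to BKO by small amounts. Bax read 495 in BKO and 380.2 in CON (1.30-fold, 1.22-fold in the authors' intensities). Bak1, close to the detection limit, read 61.8 in BKO and 55.1 in CON (1.12-fold). Bok, the other member of this class, read 2318 in BKO and 2156 in CON on one probe and 149 in BKO and 128 in CON on the other (log2 differences 0.10 and 0.22). All 4 probes of the class were thus above 0, beside 51.3% of all detected probes. The brighter Bok probe, however, stood at -0.03 under median scaling, a setting that moved the median of all detected probes to -0.10. None of the 4 reached 1.5-fold.

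BH3-only proteins are the sensors that start the intrinsic route. Of their 9 detected probes, for 6 genes, 6 were below 0, as were 48.6% of all detected probes. None passed 1.5-fold (log2 differences -0.25 to 0.52). Bid, which caspase-8 cuts to link both routes, read 392 in BKO and 465 in CON on its brighter probe, while the dim one was detected in BKO alone, at least 1.03-fold above CON. Bad read 1160 in BKO and 1043 in CON. Bcl2l11, which encodes Bim, had 3 detected probes from -0.09 to 0.16. Both p53-induced members were slightly lower, Bbc3 (Puma) with 311 in BKO and 335 in CON and Pmaip1 (Noxa) with 52.6 in BKO and 59.7 in CON. Bmf, a sensor of detachment from the matrix, read 153 in BKO and 176 in CON. Among genes that carry the family name without a settled role in this scheme, Bcl2l12 was the one member past 1.5-fold on its brightest probe upward, at 108 in BKO and 67.8 in CON (1.60-fold, 1.18-fold in the authors' intensities). Its other probe and both Bcl2l14 probes were not detected. Bcl2l13, a mitochondrial receptor for mitophagy, read 687 in BKO and 692 in CON.

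The apoptosome and the proteins that leave mitochondria hardly differed. Apaf1, the apoptosome scaffold, was slightly lower on both probes, with 758 in BKO and 835 in CON on the brighter (log2 difference -0.14) and 145 in BKO and 166 in CON on the other (-0.20). Diablo, which frees caspases from IAPs, read 1581 in BKO and 1461 in CON. Aifm1, a mitochondrial flavoprotein, read 332 in BKO and 287 in CON on its brightest probe (1.16-fold). Cycs, cytochrome c, was detected in BKO alone by 1 of 2 probes, at a bound of 1.04-fold. Fadd, the adaptor of death receptors, had 3 detected probes from -0.05 to 0.19, and the brightest read 662 in BKO and 619 in CON. Cflar, which competes with caspase-8 at Fadd, was not detected by either probe.

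**Figure D2:**
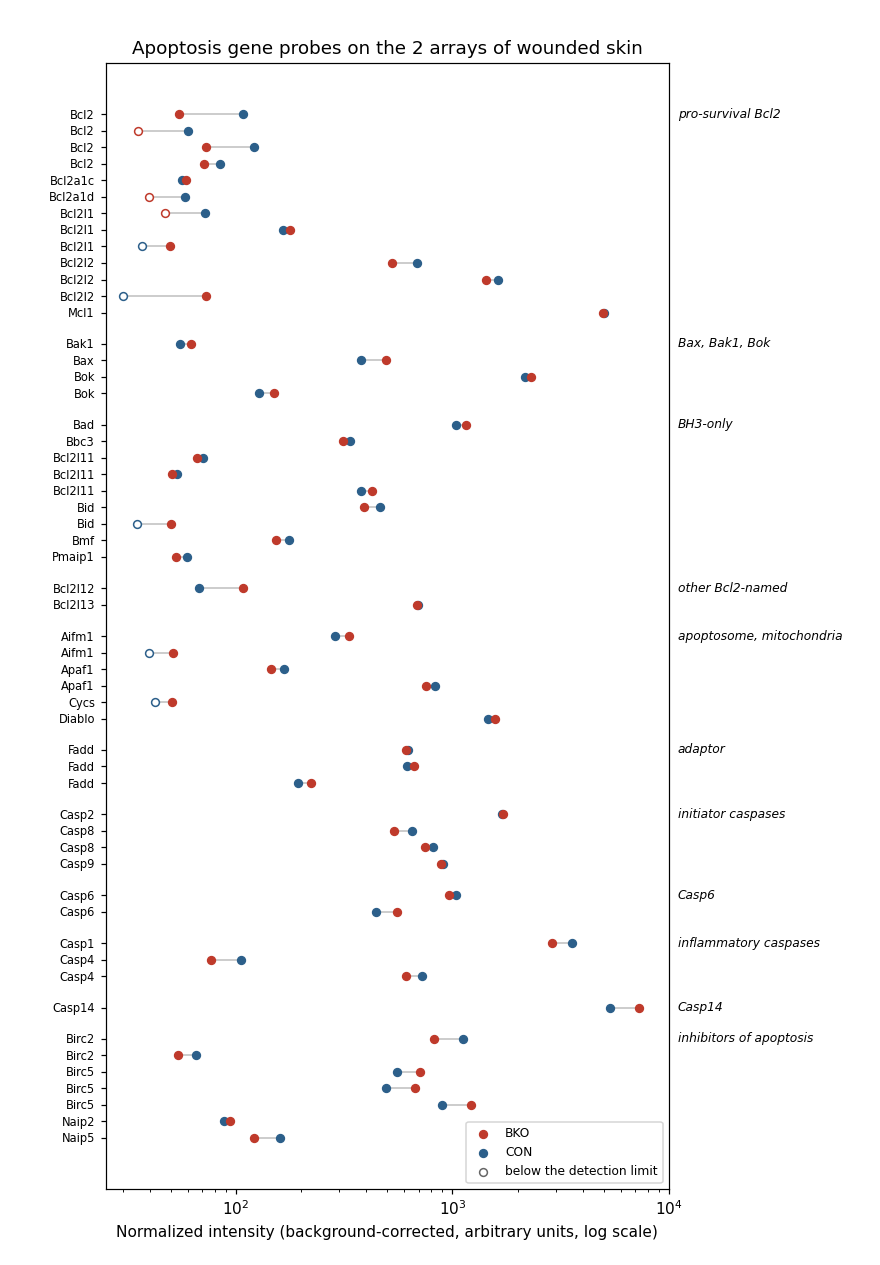
Normalized intensity (horizontal, log scale, arbitrary units) of 54 of the 55 detected apoptosis probes, one row each, grouped by role, with BKO in red, CON in blue and open circles for values below the detection limit. Most pairs lie close together, and the widest gaps are among dim probes of Bcl2 and Bcl2l2.

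Among initiator caspases, Casp8, the initiator of the extrinsic route, was lower in BKO on both probes, with 749 in BKO and 814 in CON on one and 536 in BKO and 653 in CON on the other (log2 differences -0.12 and -0.28). Casp9, the apoptosome caspase, read 886 in BKO and 905 in CON on its detected probe. Casp2 read 1719 in BKO and 1703 in CON. The 2 probes of Casp6, an executioner caspase, disagreed, with 557 in BKO and 443 in CON on one (log2 difference 0.33) and 963 in BKO and 1039 in CON on the other (-0.11). Casp8ap2, a partner of caspase-8 and not a caspase, was not detected.

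The inflammatory caspases were lower in BKO on all 3 detected probes, none of them by 1.5-fold, and 48.6% of all detected probes were below 0. Casp1, which matures interleukin-1 beta and cuts gasdermin D, read 2888 in BKO and 3585 in CON (1.24-fold lower, and 1.23-fold in the authors' intensities). Casp4, the mouse gene for the sensor of intracellular lipopolysaccharide that is often called caspase-11, read 610.3 in BKO and 721 in CON on its brighter probe and 76.9 in BKO and 106 in CON on the other. The log2 differences of these 2 were -0.24 and -0.46 (1.16-fold and 1.13-fold lower in the authors' intensities). The second probe was dim, with a mean raw intensity under 300, and Casp12 was not detected. Macrophage and monocyte markers were lower in BKO in 9 of 10 detected genes (median log2 difference -0.23, summed intensity 49474 in BKO and 59331 in CON). Langerhans and dendritic cell markers were below 0 in 7 of 8 (median -0.44, summed intensity 31650 in BKO and 41027 in CON). Cd74 (14747 in BKO and 18348 in CON) and H2-Ab1 (9819 in BKO and 13416 in CON) made up most of that sum, so it is no count of cells. Cd207, a Langerhans cell marker though not of these cells alone, read 340 in BKO and 569 in CON. Xcr1 went the other way, detected in BKO alone and at least 1.28-fold above CON, and Itgax, Flt3 and Ccr7 were not detected. Interferon-response genes were lower in 8 of 8 (median -0.63, summed intensity 2305 in BKO and 3548 in CON), with Ifit1 and Mx1 not detected. Casp4 is induced by interferon in mouse macrophages, and the part of these lists in the caspase values was not tested.

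Casp14 was the caspase with the widest difference upward. It takes part in the breakdown of filaggrin during cornification and is not part of the apoptotic cascade. Its probe read 7288 in BKO and 5330.5 in CON (1.37-fold, and 1.36-fold in the authors' intensities), short of 1.5-fold. Of 11 detected markers of differentiated keratinocytes 7 were above 0 (median log2 difference 0.02, summed intensity 81149 in BKO and 79029 in CON). Of the 11, 3 were at least 1.5-fold higher, beside 3.54% of all detected genes. These were Lce1f, Tgm3 and Lce1g, at 1.65-fold, 1.20-fold and 1.20-fold in the authors' intensities, the last 2 by dim probes. Dsg1a was not detected, and Flg, the filaggrin gene, was not on the array. Wound-edge keratinocyte markers were higher in 7 of 8 (median 0.24, summed intensity 100688 in BKO and 87212 in CON). Their part in the Casp14 value was not tested.

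The windows of Casp1, Casp4 and Casp14 are shown because of their log2 differences among the detected caspase probes. The lowest were those of Casp4, on its dim probe only, and Casp1, and the highest was that of Casp14. They lie at chr9:5298267-5298566, chr9:5308599-5308898 (both plus strand) and chr10:78718244-78718543 (minus strand), and Casp1 and Casp4 are close neighbours. Capitals mark the motifs named above.
Casp1: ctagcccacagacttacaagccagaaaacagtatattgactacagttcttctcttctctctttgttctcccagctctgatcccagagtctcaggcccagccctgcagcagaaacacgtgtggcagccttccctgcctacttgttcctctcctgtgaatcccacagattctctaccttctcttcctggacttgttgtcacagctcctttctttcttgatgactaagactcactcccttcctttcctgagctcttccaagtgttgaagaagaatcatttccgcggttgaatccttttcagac
Casp4: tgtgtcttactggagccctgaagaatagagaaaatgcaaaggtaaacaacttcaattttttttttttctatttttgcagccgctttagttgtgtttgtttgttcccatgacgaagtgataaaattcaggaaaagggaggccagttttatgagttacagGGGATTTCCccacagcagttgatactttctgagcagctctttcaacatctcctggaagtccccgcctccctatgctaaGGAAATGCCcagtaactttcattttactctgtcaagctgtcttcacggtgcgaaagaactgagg
Casp14: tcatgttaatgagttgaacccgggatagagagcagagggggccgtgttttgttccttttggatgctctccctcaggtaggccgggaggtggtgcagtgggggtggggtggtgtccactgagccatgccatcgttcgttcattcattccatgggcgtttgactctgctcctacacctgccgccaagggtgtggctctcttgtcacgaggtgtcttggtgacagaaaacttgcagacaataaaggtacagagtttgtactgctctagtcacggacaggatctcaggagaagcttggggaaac
The Casp4 window holds 2 matches to the NF-kB letters, 92 and 14 bases before the start. Those of Casp1 and Casp14 hold none of the 5 motifs, which says only that these letters are not in these windows.

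Among the inhibitors of apoptosis, Birc5 and Birc2 each had more than 1 detected probe, and these lay on opposite sides of 0, Birc5 above and Birc2 below. Birc5 encodes survivin, which belongs to the chromosomal passenger complex of mitosis and is made in dividing cells. Its 3 probes were all higher in BKO. They read 1219 in BKO and 895.5 in CON, 710.4 in BKO and 555 in CON, and 671 in BKO and 496 in CON. The log2 differences lay within 0.09 of each other (0.44, 0.36 and 0.44), the closest accord among members with 3 or more detected probes, and were 0.31 to 0.41 in the authors' intensities. Markers of dividing cells were higher in 7 of 8 detected genes (median 0.18, summed intensity 5003 in BKO and 4249 in CON), led upward by Plk1 at 0.49 and Foxm1 at 0.34, with Kif11 at -0.81. Bub1 and Ccnb2 were not detected, and their part in the Birc5 values was not tested.

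Birc2 encodes cIAP1, a ubiquitin ligase that steers TNF receptor signals away from cell death. Its brightest probe read 822 in BKO and 1119 in CON (1.36-fold lower, 1.32-fold in the authors' intensities), the lowest log2 difference, -0.45, among the 31 apoptosis probes with a raw intensity of 300 or more. A second Birc2 probe read 54.2 in BKO and 65.4 in CON (-0.27), and its other probe was not detected. Naip5 and Naip2 belong to the same family by sequence and act as inflammasome sensors of bacterial proteins. Naip5 read 122 in BKO and 161 in CON (1.32-fold lower), and Naip2 read 93.9 in BKO and 88.5 in CON. The Naip genes are close copies, so these values too are uncertain as to copy. Xiap, the direct inhibitor of caspases, was not detected by any of 3 probes, and neither were Birc3, Birc6, Naip1 and the copy that the array names Birc1g.

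The windows of Birc5 and Birc2 are shown because these inhibitors had all their detected probes on one side of 0. Birc5 is at chr11:117848987-117849286 (plus strand) and Birc2 at chr9:7837008-7837307 (minus strand). Birc2 has a second window, which holds none of the motifs and is not shown.
Birc5: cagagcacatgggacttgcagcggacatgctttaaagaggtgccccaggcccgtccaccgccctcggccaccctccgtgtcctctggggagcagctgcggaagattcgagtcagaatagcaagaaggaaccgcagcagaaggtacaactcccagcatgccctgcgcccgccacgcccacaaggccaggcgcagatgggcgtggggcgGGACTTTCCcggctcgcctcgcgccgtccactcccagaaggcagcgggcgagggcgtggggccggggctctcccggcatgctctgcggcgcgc
Birc2: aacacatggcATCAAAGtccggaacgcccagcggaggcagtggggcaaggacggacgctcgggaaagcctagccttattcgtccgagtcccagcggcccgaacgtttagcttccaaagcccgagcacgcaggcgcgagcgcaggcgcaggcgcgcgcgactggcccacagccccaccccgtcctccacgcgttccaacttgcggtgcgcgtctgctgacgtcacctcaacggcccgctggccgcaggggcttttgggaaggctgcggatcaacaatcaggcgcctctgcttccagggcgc
Capitals mark an NF-kB match 43 bases before the Birc5 start and a TCF/LEF match 240 bases before the Birc2 start. That Birc2 match, on the reverse strand, is the only TCF/LEF match among the 53 windows.

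For 14 of the genes at least 2 probes were detected, so probes of one gene can be set against each other. In 8 of the 14 (57.1%) all detected probes lay on the same side of 0, beside 58.5% of the 2390 genes on the whole array with 2 or more detected probes. These 8 were Bcl2, Birc2, Casp4, Casp8 and Apaf1 below 0 and Birc5, Bok and Aifm1 above it. In 4 of the 14 (28.6%, beside 13.6% of all such genes) the detected probes lay at least 1.5-fold apart, namely Bcl2l2, Bcl2l1, Bid and Bcl2. The median spread was 0.23 on the log2 scale, beside 0.25 for all such genes.

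**Figure D3:**
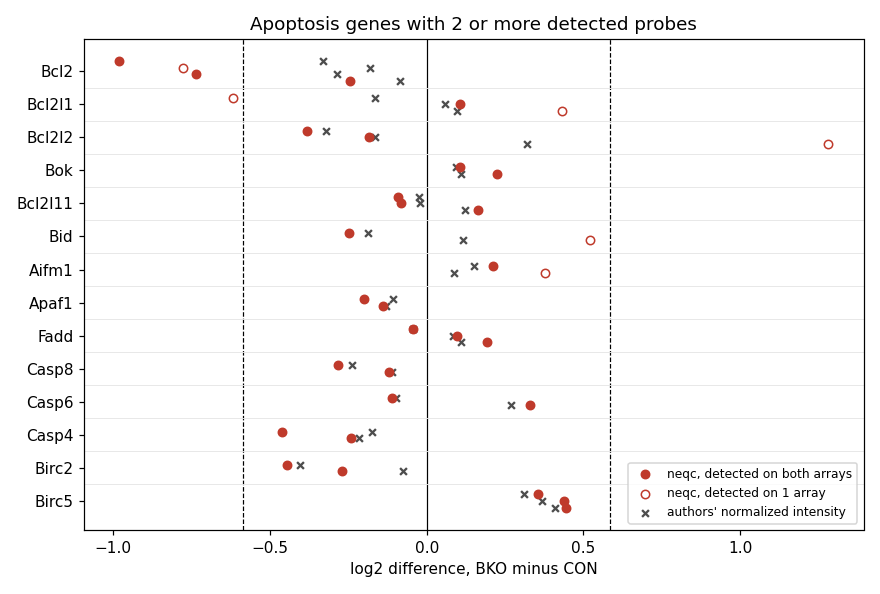
Log2 difference between BKO and CON (horizontal) for each detected probe of the 14 apoptosis genes with 2 or more, with filled circles for probes detected on both arrays, open circles for probes detected on 1, and crosses for the authors' normalized intensities. Dashed lines mark 1.5-fold; the crosses all lie inside them, and the probes of Birc5 lie together above 0 while those of Bcl2l2 lie on both sides.

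For 5 members 1 detected probe each sat just above the detection limit in BKO, at raw intensities of 178.2 (Bcl2l1), 178.6 (Bid), 179.0 (Bcl2l11), 179.2 (Cycs) and 179.8 (Aifm1) against a limit of 177.9. Just below it in BKO was a Bcl2l1 probe at 175.7, and just below the CON limit a Cycs probe at 174.8. The 33 undetected probes read 127.9 to 171.8 in BKO and 133.4 to 173.2 in CON. For 11 genes no probe was detected, so nothing can be said of their direction.

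Genes around the core pathway were also close between the arrays. Death receptors, ligands and their signalling proteins were below 0 in 11 of 15 detected genes (median log2 difference -0.15), with 1 past 1.5-fold each way. Tnfrsf10b, the mouse TRAIL receptor, was 1.70-fold higher (211 in BKO and 124 in CON, 1.33-fold in the authors' intensities). Tnfaip3, the ubiquitin-editing brake A20, was 1.62-fold lower (152 in BKO and 245.5 in CON, 1.33-fold in the authors' intensities), and Traf1 stood at 0.40. Tnfrsf1b was detected in BKO alone, at least 1.13-fold above CON. Fas, a death receptor, read 657 in BKO and 727 in CON, and Fasl and Tnfsf10 were not detected.

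None of 13 detected p53 genes passed 1.5-fold, and 7 were below 0 (median -0.16). Among genes detected on both arrays the widest differences were those of cyclin G1, Ccng1 (-0.50), Trp53inp1 (-0.39), Zmat3 (-0.36), Mdm2 (-0.33) and Sesn1 (-0.26). Perp was detected in CON alone, at least 1.07-fold lower in BKO. Cdkn1a, the best-known p53 target, read 4725 in BKO and 4374 in CON. Substrates and nucleases of the executioner phase were above 0 in 7 of 12 (median 0.07), with none past 1.5-fold, among them Lmna, the lamin that caspase-6 cuts, at 0.36, Acin1 at 0.39, Rock1 at -0.46 and Xkr8 at -0.39. Of 12 detected genes of necroptosis and pyroptosis 8 were below 0 (median -0.11), and 1 was past 1.5-fold. That was Aim2, a DNA sensor upstream of caspase-1, at 64.8 in BKO and 102 in CON (1.58-fold lower, 1.17-fold in the authors' intensities). Gsdma, a gasdermin of epidermis, stood at 0.57, Zbp1 at -0.42, and Il1b, the caspase-1 substrate, at 0.05. In all these lists together, with 15, 13, 12 and 12 detected genes, 3 genes passed 1.5-fold, which 8.02% of all detected genes did by their brightest probe. For the counts below 0, the share of all detected probes was 48.6%.

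**Figure D4:**
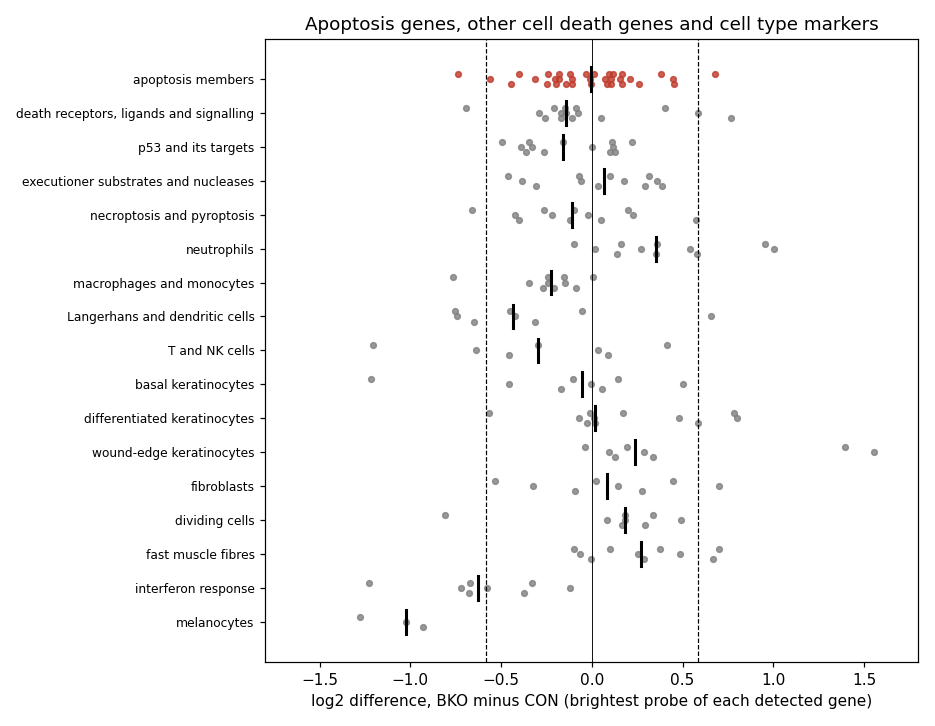
Log2 difference between BKO and CON (horizontal) for the brightest probe of each detected gene, by list, with a bar at each median and dashed lines at 1.5-fold; slow muscle and red blood cell markers are left out for their range. The 34 apoptosis genes centre near 0, while interferon-response and melanocyte genes lie below 0 and neutrophil genes mostly above.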

How the data were processed

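Total RNA of wounded skin was measured on 1 Illumina array per group, and the genotype label set the group (BKO or CON). Per the file headers, the authors deposited the raw mean bead intensity of each probe and a second, normalized intensity (method not given in the sources used here). Their value table holds the second again, at all 25697 probes. The submitters' processing notes name GenomeStudio 2011.1. The deposited detection p-values are not in row order (Spearman's rho with intensity across probes -0.0004 in BKO and 0.0024 in CON), so each array's p-values were ranked and matched to its ranked intensities, and a probe was detected at p under 0.01.

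Normalization used limma 3.58.1 (R 4.3.3) and its function neqc (normexp background, offset 16, quantile, log2), which hides any shift shared by all genes and, by its background correction, widens folds of dim probes. Normalized intensity is this value on a linear scale. A gene's probe in list counts was its brightest, and counts use fitted folds. A fold for a probe detected on 1 array is a bound, set against the other array's lowest detected value or the probe's own, whichever is higher. The bound is a ratio of neqc values without an estimate of noise, so it is no minimum under other processing. The procedure was also run on simulated data, but the outcome is not given here. Nothing about the folds of dim probes is drawn from that run. Symbols were updated through RefSeq (GRCm38.p6); 87 of 88 member probes matched by accession. The values of 2 member genes are not reported here, though the counts include them. The number of arrays limits the precision, and no test was made.

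Members, lists and rules were chosen with earlier results of these data known. Named were members past 1.5-fold on any detected probe, the brightest, those nearest the detection limits and the core genes of each role, and up to 4 genes of each pathway list by size of difference; other genes named, such as the keratins, Il1b, Fas, Cdkn1a, Mdm2, Sesn1 and Cd207, were chosen after their values were seen. Alternatives were the authors' normalized intensities, no background correction, median scaling, an offset of 50, other detection filters, 1 probe a gene and 2-fold.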

Additional observations from a re-analysis of the deposited data

How the results depend on the processing

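The median log2 difference of the apoptosis probes moved by less than 0.19 under every alternative run on it. That tolerance was taken from the spread of single detected probes, which is wide for a median, so staying within it says little. The median ran from -0.15 under median scaling (all detected probes -0.10) to -0.00 at a raw intensity of at least 300, an alternative chosen after seeing the data. The counts depended on the processing. Beside 2 probes higher and 4 lower by 1.5-fold, there were 0 and 0 in the authors' normalized intensities, 0 and 0 without background correction, 0 and 0 at a raw intensity of at least 300, 1 and 1 with an offset of 50, and 1 and 5 under median scaling. Detection on both arrays gave 1 and 2, no detection filter 3 and 5, the brightest probe of each gene 1 and 1, and the 2-fold rule 1 and 0. Background correction widens the folds of dim probes by its construction. Of the 55 probes, none changed sign without background correction or with the larger offset. This was fixed in advance, because quantile normalization sets the sign by a probe's rank on each array. None changed sign in the authors' intensities either, which may hold for the same reason, as their method is not given. Under median scaling, which could change a sign, 5 near 0 did (Diablo, Casp2, Naip2 and 1 probe each of Bok and Fadd). No paired analysis was possible because each group has 1 array. Signal near background limits the data: 33 of 88 probes were not detected.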
